A study of Mus musculus with 68 samples.

Results

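Prostate samples from 6 OPN-null TRAMP mice at the early age were compared with those from 7 early TRAMP mice that carry intact OPN, across all target probe sets of the array. The members were the arrays that the labels give as OT8, OT9, OT11, OT12, OT13 and OT14 (16 to 17 weeks) and as T8 to T14 (16 weeks), which are 13 of the 68 arrays of the series. All 13 animals carried the TRAMP transgene, in which the rat probasin promoter drives the SV40 T antigens in prostate epithelium, and the groups differed by label in the deletion of OPN (osteopontin, gene Spp1). No treatment is given in the labels. The series' design text gives other ages than the sample labels, and the label ages are used throughout. Each array has its own animal code. The limma p-values rest on a spread pooled over all 38 transgenic arrays, which adds the late groups and the SPARC-null TRAMP mice (6 early of 18 to 19 weeks and 9 late of 24 to 29 weeks) to these 13. Other groups used below were late TRAMP (7 animals, 24 to 25 weeks), late OPN-null TRAMP (3 animals, 24 to 27 weeks), and mice without the transgene, namely wild type (4 early, 16 weeks, and 6 late, 24 weeks) and OPN-null (5 early, 16 to 17 weeks, and 3 late, 24 weeks). Array O12, from a mouse of 16 weeks without the transgene, was put in no group, because its genotype is labelled SPARC-null while its animal code begins like those of OPN-null mice. The labels name prostate tumours as the tissue of every sample, those without the transgene included, and do not say how the tissue was dissected.

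Osteopontin is a secreted phosphoprotein of the SIBLING family that binds integrins and CD44 and is made by macrophages, bone cells and many carcinomas. Prostate luminal cells secrete large amounts of protein and so depend on the chaperones of the endoplasmic reticulum (ER), whose genes are switched on by the unfolded protein response (UPR) through ATF6, XBP1 and ATF4. The cytosolic chaperones are controlled separately, by heat shock factors that bind heat shock elements.

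No named probe set measured Spp1, so the OPN genotype could not be checked on these arrays. The probe sets for SV40, which report the transgene, averaged 7.19 ± 0.54 log2 units in OPN-null TRAMP (SD, n = 6) and 6.82 ± 0.52 in TRAMP (SD, n = 7), a difference of 0.37 (2-sided exact permutation p = 0.241). Array quality was taken as the AUC with which positive control probe sets stand above negative ones. It averaged 0.739 ± 0.00802 in OPN-null TRAMP and 0.726 ± 0.0317 in TRAMP (exact permutation p = 0.36), but the TRAMP arrays T10 (0.674), T8 (0.706) and T9 (0.707) lay below every OPN-null array, of which the lowest had 0.723. Correlations between the 13 arrays ran from 0.843 to 0.982, and 0 pairs were identical. The prostate marker Pbsn (probasin) ran from 8.24 to 11.8 in TRAMP and from 10.13 to 11.59 in OPN-null TRAMP. A centred mean was taken per array, averaging a list's genes after subtracting from every gene its average across the 13 arrays. For the 9 measured seminal vesicle genes it ran from -2.39 to 4.35 log2 units in TRAMP and from -0.784 to 1.997 in OPN-null TRAMP. The part of this seminal vesicle signal in the results was not tested. In bulk tissue, fewer cells of a type and less RNA per cell cannot be told apart.

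Of 22206 target probe sets, 1 was called at an adjusted p under 0.05 by limma (0.0045%), that of Hsph1. Hsph1 encodes a cytosolic HSP110 chaperone, which exchanges nucleotide on HSP70 and holds unfolded protein. The 250 bases before 1 of its RefSeq starts are shown because this gene carries the 1 call. In addition, the promoter region of a chaperone gene often holds heat shock elements. The sequence is from RefSeq, build GRCm38.p6, at chr5:149636337-149636586 on the minus strand, written 5′ to 3′, with a heat shock element (GAANNTTC or TTCNNGAA) in capitals.
Hsph1: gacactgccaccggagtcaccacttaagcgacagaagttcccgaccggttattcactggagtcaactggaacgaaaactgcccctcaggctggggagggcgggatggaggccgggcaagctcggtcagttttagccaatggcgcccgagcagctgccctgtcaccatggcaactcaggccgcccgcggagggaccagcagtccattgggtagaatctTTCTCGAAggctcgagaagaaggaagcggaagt

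The Hsph1 values of the TRAMP arrays T8 to T14 were 6.56, 6.58, 6.67, 7.47, 6.86, 7.40 and 6.95 log2 units. Those of the OPN-null arrays OT8, OT9, OT11, OT12, OT13 and OT14 were 7.54, 7.86, 8.26, 8.06, 8.26 and 7.83. Every OPN-null array lay above every TRAMP array, and the closest were OT8 and T11. The TRAMP mean was 6.93 ± 0.38 (SD, n = 7) and the OPN-null mean 7.97 ± 0.28 (SD, n = 6). Hsph1 thus rose by 1.04 on the log2 scale (SE 0.18, 95% interval 0.68 to 1.41, limma adjusted p = 0.0256), or 2.06-fold. The second smallest adjusted p was 0.76. The call was kept without OT8, T11 or T13 and lost on leaving out any other single array (OT9, OT11 to OT14, T8 to T10, T12 and T14), while the difference stayed between 0.98 and 1.13 over all 13 such fits. With only the compared groups in the fit the call was lost too (limma adjusted p = 0.426). Without T8, T9 and T10 together the difference was 0.80 (limma adjusted p = 0.808).

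**Figure D1:**
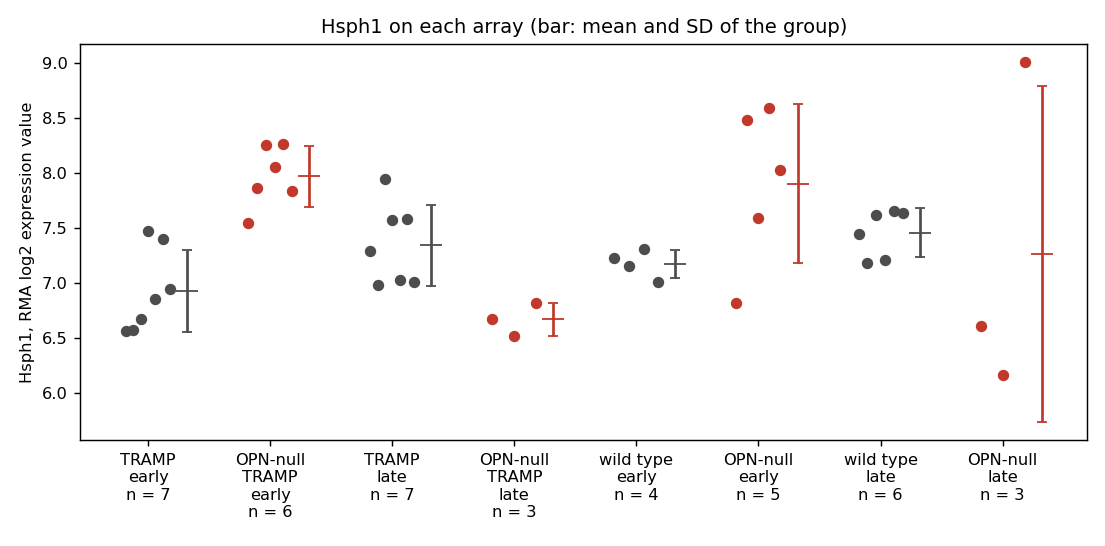
RMA log2 values of Hsph1 on each array (points) with the mean and SD of each group (bars), for TRAMP and OPN-null TRAMP mice and for mice without the transgene, at both ages. Early OPN-null TRAMP arrays run from 7.54 to 8.26 and early TRAMP arrays from 6.56 to 7.47, while the late OPN-null TRAMP arrays lie between 6.52 and 6.82.

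Hsph1 was also measured in the other OPN-null mice. In early mice without the transgene the OPN-null arrays O1, O8, O9, O10 and O11 had 6.82, 8.48, 7.59, 8.59 and 8.03, and the wild-type arrays B8, B10, B11 and B13 had 7.23, 7.16, 7.31 and 7.01. All OPN-null arrays but O1 lay above all of the wild type, and the difference of 0.72 was not called (SE 0.45, limma adjusted p = 1.0). In late mice without the transgene the OPN-null arrays O2 and O14 had 6.61 and 6.17, below every wild-type array (7.18 to 7.66), and O7 had 9.01, above all of them, with a difference of -0.19 (SE 0.47, limma adjusted p = 0.879). In late TRAMP mice the sign was opposite. There Hsph1 was lower in the OPN-null group, at 6.67, 6.52 and 6.82 in OT2, OT3 and OT6, with a difference of -0.67 (limma adjusted p = 0.0268). The late minus early difference of the OPN effect was -1.72 (limma adjusted p = 4.45e-05), and the comparison of the OPN effect with and without the transgene gave 0.32 (limma adjusted p = 0.887).

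Before adjustment, 1450 probe sets had a p under 0.05, with 495 higher (2.23%) and 955 lower (4.3%) in OPN-null TRAMP, so 65.9% of them were lower. With the array medians centred 51.7% of 1325 were lower, and with cyclic loess 49.6% of 1375. Over all probe sets the median difference was -0.03 and 40.1% were positive. All OPN-null arrays lay above all TRAMP arrays for 7 probe sets (0.0315%) and below them for 30 (0.135%). The 95% interval of the difference lay within a log2 difference of 1 on either side for 21542 probe sets (97.0%). Groups of genes are described below by how many members had an unadjusted p under 0.05, and none of these members but Hsph1 was called. With all arrays, the shares to set beside these counts are 2.23% higher and 4.3% lower. The counts were made without either rescaling, so the general excess of lower values is part of them.

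The cytosolic heat shock list had 27 measured members of 31. Of these, 8 had higher values at that threshold and 0 lower, and their median difference was 0.23. Hsp90aa1, the stress-inducible HSP90, ran from 5.66 through a median of 6.82 to 7.64 in TRAMP and from 6.81 through 8.18 to 9.07 in OPN-null TRAMP, and the ranges overlapped. Its difference was 1.27 (SE 0.41, limma adjusted p = 0.76). The HSP110 relative Hspa4 differed by 0.66 and the small heat shock protein gene Hspb1 by 0.65. The HSP90 partners followed with 0.43 for Stip1, which joins HSP70 to HSP90, 0.37 for Ahsa1, an activator of HSP90, and 0.26 for Chordc1, while the HSP70 cofactor St13 differed by 0.35. The stress-induced HSP70 genes Hspa1a and Hspa1b differed by -0.03 and -0.05, and the HSP40 gene Dnajb1 by 0.23. Heat shock elements occurred in the RefSeq promoter entries (250 bases before to 50 after the start, either strand) of 11 of the 23 members with an entry (47.8%), against 17.0% of 27025 genes. In the 250 bases before the start alone the shares were 34.8% and 14.5%. These matches are descriptions of letters, and 3 were counted for the gene Hsph1. RefSeq gives Hsph1 another, overlapping entry, whose 250 bases at chr5:149636316-149636565 hold the same element as those shown above.

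ER chaperones and folding enzymes had 21 measured members of 23, of which 10 were higher at the threshold and 0 lower, with a median of 0.36. Sequences before the starts of 3 of them are shown because 8 of the 19 members with a promoter entry (42.1%) held an ER stress response element, which is CCAAT, then any 9 bases, then CCACG, on either strand. Of all 27025 genes 0.137% held it, and the 250 bases before the start alone gave 42.1% and 0.13%. All 3 are from RefSeq, build GRCm38.p6, plus strand, 5′ to 3′, with the element in capitals, at chr15:88819396-88819645 for Creld2, chr14:118937682-118937931 for Dnajc3 and chr2:34771840-34772089 for Hspa5. In Creld2 the element lies on the other strand.
Creld2: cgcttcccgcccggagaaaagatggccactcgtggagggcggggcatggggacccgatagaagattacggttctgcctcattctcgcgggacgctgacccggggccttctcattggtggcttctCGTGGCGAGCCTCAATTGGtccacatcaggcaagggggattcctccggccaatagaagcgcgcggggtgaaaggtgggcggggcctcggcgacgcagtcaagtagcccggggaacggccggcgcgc
Dnajc3: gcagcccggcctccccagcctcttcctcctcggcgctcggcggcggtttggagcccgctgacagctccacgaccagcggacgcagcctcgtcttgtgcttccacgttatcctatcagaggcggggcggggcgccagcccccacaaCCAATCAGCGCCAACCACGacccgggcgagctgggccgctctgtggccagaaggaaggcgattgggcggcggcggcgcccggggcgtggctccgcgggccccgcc
Hspa5: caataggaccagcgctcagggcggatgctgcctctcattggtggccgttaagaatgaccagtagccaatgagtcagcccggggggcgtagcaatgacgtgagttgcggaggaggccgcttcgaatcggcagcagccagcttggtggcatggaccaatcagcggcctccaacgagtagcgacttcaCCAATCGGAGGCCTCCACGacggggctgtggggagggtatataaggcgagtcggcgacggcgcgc

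Creld2, an ER protein induced by stress, ran from 7.29 through 8.05 to 9.53 in TRAMP and from 8.86 through 9.25 to 9.98 in OPN-null TRAMP. Only T11 (8.95) and T13 (9.53) reached into the OPN-null range. Its difference was 1.13 (SE 0.33, limma adjusted p = 0.76). Dnajc3, a partner of the ER HSP70 that also restrains the kinase PERK, ran from 6.25 through 8.03 to 8.70 and from 8.35 through 8.64 to 9.18, a difference of 1.04 (SE 0.32). Hspa5, the ER HSP70 known as BiP, ran from 8.98 through 10.2 to 11.4 and from 10.47 through 11.15 to 11.61, a difference of 0.85 (SE 0.28). In each of these 3 genes the groups overlapped and T10 was the lowest array. Dnajb9, another BiP partner, differed by 1.22 (SE 0.55) and Hsp90b1, the ER HSP90, by 0.70 (SE 0.24). The lectin chaperones Calr and Canx differed by 0.44 and 0.34 and the disulfide isomerases Pdia6 and Pdia3 by 0.43 and 0.38, of which Pdia3 missed the unadjusted threshold. Ero1a and Ero1b, the oxidases that recharge the isomerases, differed by -0.07 and -0.17.

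Of 14 measured genes of ER-associated degradation, 4 were higher at the threshold and 0 lower, with a median of 0.24. They were Herpud1, a scaffold of the degradation complex (0.85, SE 0.28), Selenos (0.53), the ubiquitin ligase Syvn1 (0.48) and Derl3 (0.28). Among 24 genes of ER translocation and the early secretory pathway 5 were higher and 0 lower, with a median of 0.35, led by the translocation protein Tram1 (0.69) and the KDEL receptor Kdelr2 (0.66). Of 18 sensors and stress effectors of the UPR, 2 were higher and 0 lower, with a median of 0.00. Xbp1 differed by 0.04, Ern1 (IRE1) by 0.01, Eif2ak3 (PERK) by -0.06 and Atf6 by 0.12. The members at the threshold were Asns, which makes asparagine (0.59), and Ddit3, the CHOP transcription factor (0.42). A second probe set of Ddit3 gave 0.74.

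**Figure D2:**
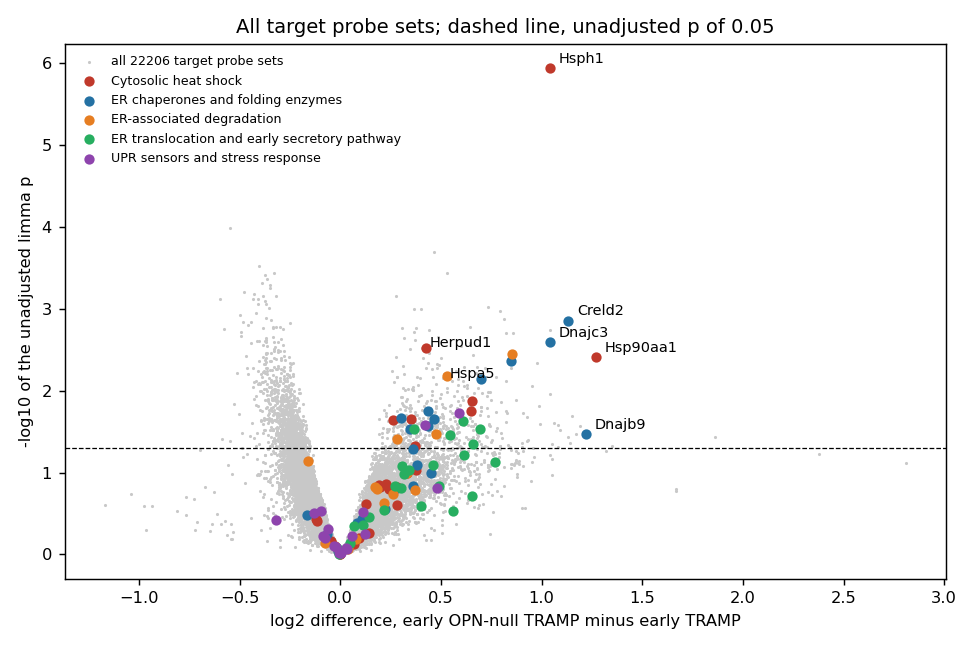
Log2 difference of early OPN-null TRAMP minus early TRAMP against -log10 of the unadjusted limma p for all 22206 target probe sets (grey), with the members of 5 chaperone and ER lists in colour and the unadjusted threshold of 0.05 as a dashed line. Hsph1 at 1.04 stands above all other probe sets, and the members past the threshold lie on the side of higher values.

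These differences moved with 3 TRAMP arrays, of which only T10 had an AUC under the limit of 0.7 used below. T8, T9 and T10 had the lowest AUC of the 13 arrays and the lowest values of Hsp90aa1 (6.26, 5.78 and 5.66), Creld2 (7.65, 7.65 and 7.29) and Dnajc3 (7.28, 7.04 and 6.25). Without these 3 arrays, a comparison added after the data were seen, 2 of 27 heat shock genes were higher (Hsph1 and Chordc1) with a median of 0.04. ER chaperones then had 0 of 21 with a median of 0.04, ER-associated degradation 0 of 14, and ER translocation 0 of 24, while 1.88% of all probe sets were higher at that threshold. In each of these 4 lists T8, T9 and T10 had the lowest centred means of the 13 arrays. Leaving them out was thus bound to lower the differences, and fewer TRAMP arrays also lower the counts. Dnajc3 then differed by 0.39, Creld2 by 0.60 and Hsp90aa1 by 0.68. With all arrays and the AUC as a covariate, the counts of these 4 lists in the same order were 7, 8, 2 and 3, beside 2.41% of all probe sets, and the medians were 0.13, 0.22, 0.12 and 0.14. The part of array quality in the group differences cannot be told apart from that of genotype for these 3 arrays, since no OPN-null array had so low an AUC. T8, T9 and T10 also had the lowest centred means of the luminal genes (-0.361, -0.227 and -1.009) and smooth muscle genes (-0.302, -0.702 and -0.985). Their centred means of the neuroendocrine genes were the highest (0.078, 0.13 and 0.167). The part of cell types in the group differences was not tested.

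**Figure D3:**
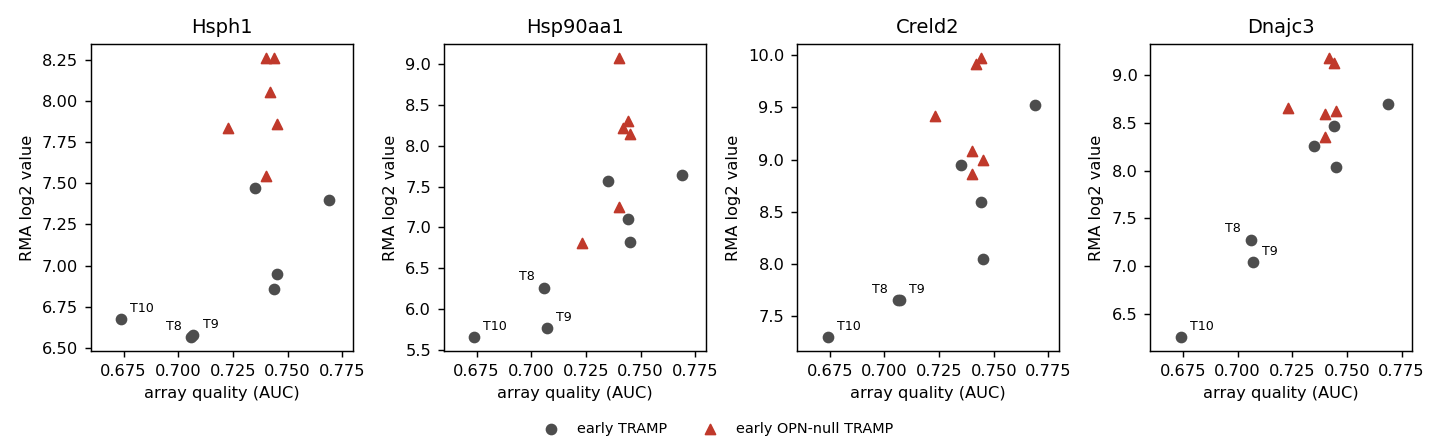
RMA log2 values of Hsph1, Hsp90aa1, Creld2 and Dnajc3 against array quality (AUC of positive against negative control probe sets) for 7 early TRAMP arrays (circles) and 6 early OPN-null TRAMP arrays (triangles). T8, T9 and T10 lie at an AUC of 0.706, 0.707 and 0.674, to the left of every OPN-null array.

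**Figure D4:**
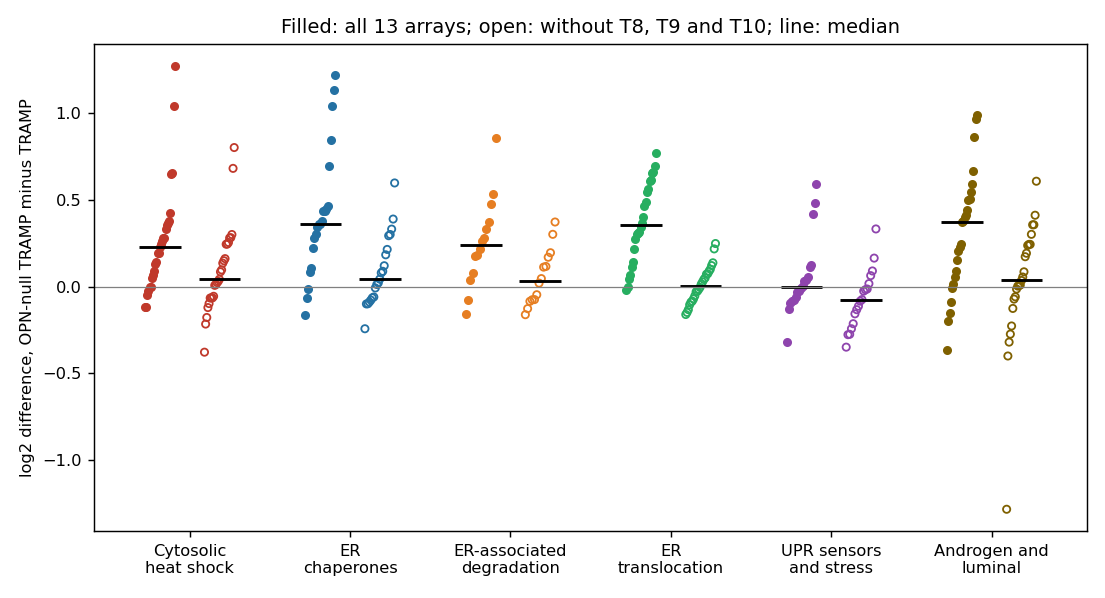
Log2 differences of the measured members of 6 lists with all 13 arrays (filled) and without T8, T9 and T10 (open), with the median as a line. The medians of the ER chaperones go from 0.36 to 0.04 and those of the heat shock genes from 0.23 to 0.04. Both lists had their lowest centred means in the arrays left out, so that a fall was bound to follow.

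Other genes with the smallest p and higher values had smaller differences. Folr2, the folate receptor of tissue macrophages, ran from 6.13 through 6.61 to 6.79 in TRAMP and from 6.77 through 6.99 to 7.23 in OPN-null TRAMP, a difference of 0.46 (SE 0.11, limma adjusted p = 0.76). For the sialyltransferase gene St3gal1 the highest TRAMP array had 7.12 and the lowest OPN-null array 7.20, so that the groups did not overlap, with a difference of 0.37. Pisd-ps3, a pseudogene of phosphatidylserine decarboxylase that may share probes with its relatives, was also apart, with 8.39 as the highest TRAMP and 8.41 as the lowest OPN-null value (0.53). Ace, the angiotensin-converting enzyme, differed by 0.81, the galactosyltransferase gene B4galt4 by 0.64, Tvp23b by 0.40 and the deubiquitinase gene Otulin by 0.28. No TRAMP array had more than 4.24 for Otulin, which is in the lower range of the array's signal.

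Among lower values, Tas2r106, a bitter taste receptor gene, had the smallest p. It ran from 4.11 through 4.58 to 4.97 in TRAMP and from 3.72 through 3.96 to 4.14 in OPN-null TRAMP, a difference of -0.55 (SE 0.13, limma adjusted p = 0.76), values in the lower range of the array's signal. Groups were apart for Rab26, a GTPase of secretory vesicles (lowest TRAMP 6.79, highest OPN-null 6.71, difference -0.33), for the ubiquitin ligase gene Arel1 (7.59 and 7.499, -0.36) and for Miip (6.72 and 6.64, -0.35). The calcium release channel gene Ryr2 differed by -0.37 (SE 0.10), the ephrin gene Efna3 by -0.39 and the signalling regulator Rgs12 by -0.35. The nuclear transport receptor Ipo13 differed by -0.48, Lrrc32 by -0.43 and Susd4 by -0.41. Lrrc32 had a mean of 3.92 in late TRAMP, also in the lower range of the signal. The largest lower differences past the unadjusted threshold were those of the ATP-gated channel P2rx1 (-0.58), Tas2r106, Efcab7 (-0.51), the phospholipase gene Plcd3 (-0.50) and the RNA-binding protein gene Rbm24 (-0.50). Without T8, T9 and T10 these last 3 differed by -0.70, -0.80 and -0.72.

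The largest higher differences past the threshold, besides Hsp90aa1 and Dnajb9, were those of small housekeeping genes. Ndufa1, a subunit of respiratory complex I, had 5.46, 6.81 and 4.51 in T8, T9 and T10, between 9.51 and 10.30 in the other TRAMP arrays and from 9.36 through 9.999 to 10.56 in OPN-null TRAMP. Its difference was 1.86 (SE 0.86) with all arrays and -0.02 without those 3. The proteasome gene Sem1 differed by 1.35 and the ribosomal protein gene Rps15a by 1.33, and by 0.14 and 0.10 without the 3 arrays. Over all probe sets, 30 had an absolute difference over 1, 28 of them positive, and 20 of the 30 had an unadjusted p under 0.05.

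The partners of osteopontin were measured. Of 17 receptor and protease genes 0 were higher and 3 lower at the threshold, against 4.3% of all probe sets lower, with a median of -0.05. The integrin subunit genes were Itga9 (-0.36, SE 0.15), Itgb3 (-0.32, SE 0.12) and Itgav (-0.19, SE 0.09), the last 2 of which form the classical osteopontin receptor. For Itgb3 the TRAMP arrays ran from 6.44 through 6.95 to 7.22 and the OPN-null arrays from 6.41 through 6.63 to 6.79. T14 was low among the TRAMP arrays and the groups overlapped. Cd44, another osteopontin receptor, differed by 0.04 (95% interval -0.26 to 0.34). None of the 3 integrin genes was lower at the threshold without T8, T9 and T10, where they differed by -0.29, -0.20 and -0.18. In that fit 1 other of the 17 genes was lower, beside 3.11% of all probe sets. Of 21 SIBLING and matricellular genes 0 were higher and 4 lower, again against 4.3% of all probe sets lower, with a median of -0.01. They were the thrombospondins Thbs2 (-0.41, SE 0.14) and Thbs4 (-0.26), tenascin C (Tnc, -0.35, SE 0.15) and Smoc2 (-0.29, SE 0.10). Without T8, T9 and T10 the count of lower genes among the 21 was 3, beside 3.11% of all probe sets. The SIBLING genes Ibsp, Dmp1, Dspp and Mepe differed by 0.12, 0.02, -0.08 and -0.05, and Sparc by -0.19.

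Prostate and tumour cell lists held few members past the threshold. Of 25 androgen-regulated and luminal genes 3 were higher and 0 lower, with a median of 0.37, namely the immunoglobulin receptor Pigr (0.99, SE 0.42), the prostate transcription factor Hoxb13 (0.55) and Timp4 (0.59). Without T8, T9 and T10 the count was 0 and the median 0.04. Of 12 basal epithelium genes 1 was lower, and of 14 epithelial adhesion genes 0 passed. All 21 measured neuroendocrine genes had a 95% interval within a log2 difference of 1, as did 97.0% of all probe sets. Of the 21 genes 1 was lower, Chgb (-0.25), and the median was -0.03. Syp differed by -0.01 and Chga by -0.04. All 23 cell cycle genes were within 1 as well, with 0 past the threshold and a median of -0.06.

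Stromal and immune lists were counted in the same way. Among 12 smooth muscle genes 1 was lower, with a median of 0.00. Without T8, T9 and T10 the count was 5, beside 3.11% of all probe sets, and the median -0.45. Among 11 fibroblast genes 0 passed, and among 10 endothelial genes 1 was higher. Of 12 macrophage genes 0 passed. Of 12 T and NK cell genes the cytotoxic granule gene Gzmb (0.36, SE 0.13) and the NK receptor gene Klrb1c (0.48) were higher and Cd3d (-0.28) was lower. Gzmb and Klrb1c differed by 0.46 and 0.53 without T8, T9 and T10. Of 17 immediate early genes 4 were lower, against 4.3% of all probe sets, and 0 higher, with a median of -0.09. They were Junb (-0.34, SE 0.11), Fos (-0.26), Egr2 (-0.22) and Nr4a1 (-0.21), which are transcription factors that respond within minutes to stimuli. Without T8, T9 and T10 the count of lower genes among the 17 was 3, beside 3.11% of all probe sets. Junb ran from 6.61 through 6.98 to 7.08 in TRAMP and from 6.34 through 6.65 to 6.81 in OPN-null TRAMP, and T12 was the TRAMP array inside the OPN-null range. Of 9 seminal vesicle genes 0 passed, and 0 had an interval within 1, so that differences in this tissue were not resolved.

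Mice without the transgene were a separate set of animals. Between early OPN-null and wild-type mice limma called 0 probe sets, with 843 at an unadjusted p under 0.05 (3.8%). Of these, 44 were also among the 1450, which is 3.03% of the longer list, against 3.8% of all probe sets. They made up 5.22% of the shorter list, while 2.23% of all probe sets were higher and 4.3% lower in the TRAMP comparison. The overlap was thus not above the share over all probe sets, and 31 of the 44 had the same direction. Of the 27 heat shock genes 0 were higher or lower in those mice, with a median of 0.18, and of the 21 ER chaperones 0 were higher and 1 lower, with a median of 0.07. The test of a different OPN effect with and without the transgene called 0 probe sets (1120 at an unadjusted p under 0.05).

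The effect of OPN loss was also compared between the ages, where 3539 probe sets were called. The early and late comparisons share no arrays. The late OPN-null group had 3 animals of 24 to 27 weeks, against 7 late TRAMP animals of 24 to 25 weeks. The contrast holds the early difference, which for the heat shock and ER lists moved with T8, T9 and T10. Of the 3539 probe sets, 1613 were more negative late (7.26%). They included 3 of 27 heat shock genes, 17 of 21 ER chaperones, 7 of 14 genes of ER-associated degradation and 11 of 24 of ER translocation. In late mice the median difference of the ER chaperones was -1.03, against 0.36 early and 0.04 early without T8, T9 and T10. Late Dnajc3 differed by -2.26 (limma adjusted p = 5.79e-05) and late Hspa5 by -1.48 (limma adjusted p = 0.00184). Markers of cell types moved with them, and their part in this was not tested. More negative late were 16 of 25 luminal, 10 of 14 epithelial adhesion and 8 of 12 smooth muscle genes, with late medians of -1.19, -0.80 and -1.73. Among all probe sets 8.67% were more positive late, as were 13 of 21 neuroendocrine and 11 of 23 cell cycle genes, with late medians of 0.96 and 0.64.

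**Figure D5:**
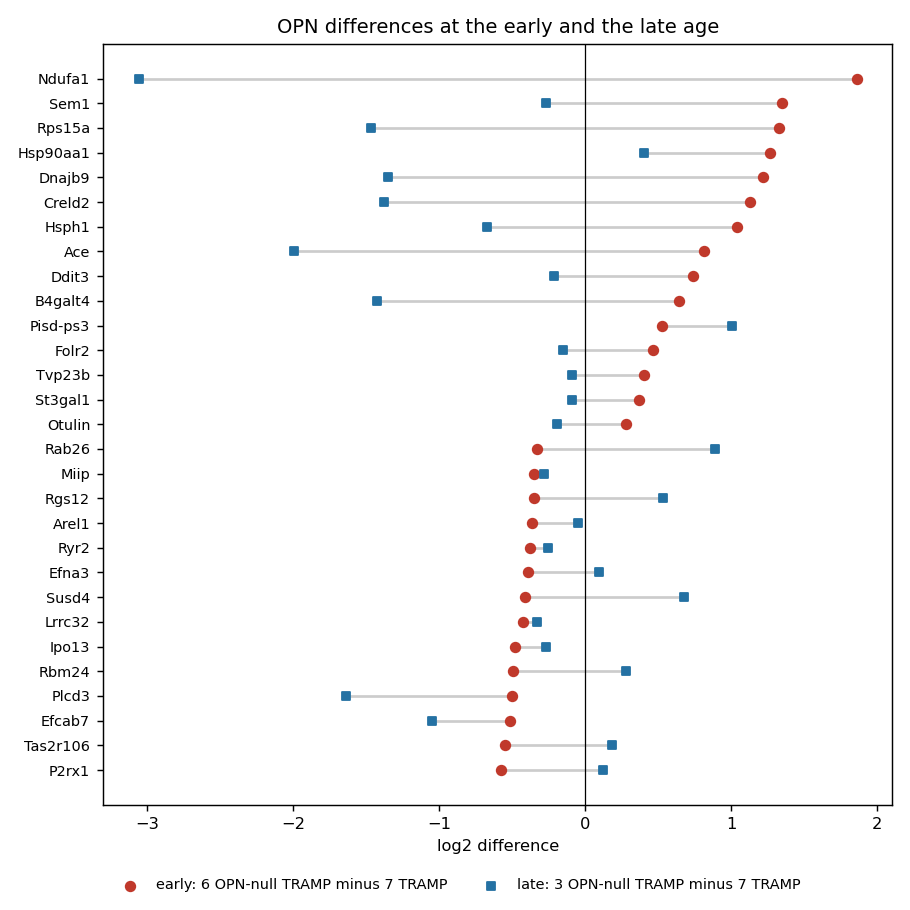
Log2 differences of OPN-null TRAMP minus TRAMP at the early (circles) and late (squares) age for the 29 probe sets with the smallest p or the largest differences early. Creld2 goes from 1.13 early to -1.38 late and Rab26 from -0.33 to 0.89.

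Genes beside Spp1 were examined because a deleted locus can carry flanking sequence of another strain. Of the 20 measured genes nearest to Spp1, 10 on each side, 2 had an unadjusted p under 0.05, Lrrc8d (-0.37) and Thoc2l (-0.23). Among all probe sets 4.3% were lower and 2.23% higher at that threshold. Hsph1 lies on the same chromosome as Spp1, chromosome 5, and is not among these 20.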

How the data were processed

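RNA of 68 mouse samples was hybridised to Clariom S arrays. The deposited values are on a log2 scale and, per the submitters' processing notes, were made by the authors with RMA in the oligo package, with the version not stated in the labels. RMA compresses differences at low signal, and its quantile step rests on most genes being unaltered between arrays. Of 29129 probe sets 6923 controls were left out, and 19572 of the 22206 target probe sets had 1 gene symbol. The highest-mean probe set stood for a gene, and 0 columns belonged to other samples. limma 3.58.1 in R 4.3.3 (lmFit, eBayes, 2-sided) was fitted to the 38 transgenic arrays (TRAMP, OPN-null TRAMP and SPARC-null TRAMP, early and late) with 1 mean per group, with Benjamini-Hochberg adjustment over all target probe sets. Mice without the transgene were compared in a fit of their 29 arrays, and the OPN effect with and without the transgene in a fit of all 67 arrays with a group. Both leave out O12. The code was tested on simulated data. Named were the called probe set, the 10 smallest p and the 5 largest differences past an unadjusted p of 0.05 in each direction, members of fixed lists and neighbours of Spp1. Members and lists were chosen with earlier results of these data known. Alternatives covered scaling, signal, covariates, weights, arrays left out and the replicate block. For motifs, the 250 bases before the start were chosen as a second window after the counts over whole promoter entries had been seen.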

Additional observations from a re-analysis of the deposited data

Results flagged for a closer look

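Of 62 groups of 4 to 10 arrays examined for an array that stands apart, 2 had one, and chance alone gives about 1 in 20. For Otulin the TRAMP array T12 had 4.24, above the other TRAMP arrays. For array quality the OPN-null array OT14 had an AUC of 0.723, below the other OPN-null arrays.

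The OPN effect differed between the ages, late minus early, for 3539 probe sets by limma, and 17 of the genes with the smallest p or the largest differences early were among them. More negative late were Hsph1 at -1.72 (adjusted p = 4.45e-05), Ace at -2.81 (9.76e-07), B4galt4 at -2.07 (5.37e-06), Creld2 at -2.51 (0.00081), Otulin at -0.47 (0.00594), Ndufa1 at -4.92 (0.0118), Plcd3 at -1.14 (0.0144), Folr2 at -0.61 (0.0165), Rps15a at -2.80 (0.0291), Dnajb9 at -2.57 (0.0421) and the second probe set of Ddit3 at -0.95 (0.0424). More positive late were Rab26 at 1.22 (1.99e-08), Susd4 at 1.09 (3.48e-05), Rgs12 at 0.88 (4.28e-05), Tas2r106 at 0.73 (0.0103), Rbm24 at 0.78 (0.0158) and Efna3 at 0.48 (0.0373). These genes were chosen for their early difference, which is part of this contrast.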

How the results depend on the processing

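Over 25 alternatives limma called 0 probe sets in 16 and 1 in 9, which was Hsph1 each time, and Hsph1 had the smallest p in 23. Its adjusted p ran from 0.00648 to 0.916, and where the count was 0 between 867 and 1911 probe sets had an unadjusted p under 0.05. The count was 0, and the Hsph1 difference 0.97, with 1 weight per array. It was 0 with the compared groups alone and with all 67 arrays (difference 1.04 in both), without arrays of an AUC under 0.7 (1.001), and without T8, T9 and T10 (0.80). Leaving out 1 array at a time gave counts of 0 to 1 and differences of 0.98 to 1.13. The Hsph1 call was kept with array medians centred, with cyclic loess, and with the AUC or the age in weeks as a covariate. A trended and robust spread kept it too, as did the probe sets at or above the median signal. With the replicate block the count was 0, the Hsph1 difference 1.001 (adjusted p = 0.0559) and 867 probe sets had an unadjusted p under 0.05, and the same 12 arrays without the block gave 0 and 1113. Same-numbered arrays correlated in their deviations from -0.548 to 0.224, and 0 of 6 TRAMP arrays correlated best with their own number. So few correlations cannot show whether same-numbered samples were handled together, and the labels do not say. The difference of Ndufa1 fell to -0.016 without T8, T9 and T10. For the OPN effect with and without the transgene, array quality as a covariate gave 1 call, Dnaic1 (-1.97, adjusted p = 0.0183, against 0.833 without the covariate). The cause of these changes was not tested. The number of arrays limits the precision, with a median SE of 0.13, and the negative control probe sets (median 5.38, 95th percentile 9.24) set no clear background.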

Other observations

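OPN-null and OPN-intact mice were compared in 4 sets of separate animals, early and late, with and without the TRAMP transgene. An unadjusted limma p under 0.05 with the same direction in all 4 sets was found for 6 of 22206 target probe sets. These 6, all named, were picked after their values were seen, and the number expected by chance was not worked out. Plcd3, a phospholipase C gene, differed by -0.50 in early and -1.64 in late TRAMP, and by -0.54 and -0.74 without the transgene. Ell, an elongation factor gene, differed by -0.35, -0.61, -0.41 and -0.53 in the same order. Pax2, a transcription factor of the urogenital tract, differed by -0.40, -0.46, -0.50 and -0.81. Ptpre, a tyrosine phosphatase gene, differed by -0.20, -0.30, -0.24 and -0.31, and the zinc finger gene Zfp64 by -0.23, -0.29, -0.35 and -0.32. Gm3893, a predicted gene, was higher in every set, by 0.37, 1.40, 0.76 and 0.83. None of these 6 was called in the early TRAMP comparison.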
